A study of Xenopus laevis with 4 samples.

Results

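The genes described here encode the proteins that license replication origins and that work at the moving replication fork. They were taken by gene symbol from a table of gene models of *Xenopus laevis*: numbered *mcm*, *orc*, *gins*, *rfc*, *rpa* and *prim* genes, the catalytic and accessory subunits of DNA polymerases alpha, delta and epsilon, and *cdc6*, *cdc45*, *cdt1*, *gmnn*, *pcna*, *fen1*, *lig1*, *wdhd1*, *rrm1* and *rrm2*. This rule found 51 of 45098 gene models, for 40 distinct symbols. It uses names alone, but this set of genes was chosen with earlier results of these data known. *X. laevis* is allotetraploid, so that a gene can have a copy on each subgenome, written .L and .S, and each copy is a gene model of its own. The rule compares models with a mean of at least 10 normalized reads over all libraries, which 39 of the 51 models reached. The model just inside this limit was *mcm5.S* with a mean of 10.4 and the model just outside it was *mcm10.L* with 9.38.

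RNA sequencing compared embryos in which Gcn5 (also called Kat2a), a histone acetyltransferase and the catalytic subunit of the SAGA coactivator, was targeted with an antisense oligonucleotide with embryos injected with water. Gcn5-AS embryos received 0.8 ng of a DNA oligonucleotide stabilized by dimethyl-ethylene-diamine groups at the 1-cell stage, and control embryos received water at the same stage. Each group has 2 libraries, each made from 10 whole embryos collected at stage 10.5, the early gastrula. Nothing in the labels says that the libraries of a group came from separate clutches, so the spread that the p-values rest on may be technical. The treatment text of the control samples repeats the oligonucleotide injection, and the groups follow the titles and the knockdown label, which both give water. Because RNA came from whole embryos, fewer cells of a type and less RNA per cell cannot be told apart.

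The oligonucleotide is shown because it is the only difference in treatment between the groups. It is 18 bases long and is written 5′ to 3′, with capitals for the bases on either side of the 11 modified linkages and lower case for the unmodified core.
Gcn5-AS: TCAAACacaagCCGGGTT
Antisense DNA of this kind pairs with its target RNA, and RNase H, an enzyme that cuts the RNA strand of an RNA-DNA hybrid, acts at the unmodified stretch.

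Licensing is the loading of the MCM helicase onto DNA before S phase. The origin recognition complex binds DNA, Cdc6 and Cdt1 load the ring of Mcm2 to Mcm7 around it, and geminin holds Cdt1 inactive once S phase has begun so that no origin is licensed again in the same cycle. At the start of S phase Cdc45 and the GINS complex join the helicase, primase and DNA polymerase alpha lay down primers, the clamp loader RFC places PCNA on the primer, and polymerases delta and epsilon extend the strands while RPA covers single-stranded DNA. The egg of *X. laevis* stores RNA and protein for these steps, which serve the rapid cleavage divisions, and at the mid-blastula transition cell cycles lengthen and zygotic transcription begins.

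The deposited values are group means, from which whole reads of each library were recovered exactly. Within a group the library with the larger size factor is called X and the other Y, and these letters are not the replicate numbers of the labels. Reads on gene models numbered 3679948 and 3610092 for Gcn5-AS X and Y, against 4093025 and 2351039 for control X and Y. The 10 most abundant models took 36.0% and 50.2% of the reads of the Gcn5-AS libraries, against 40.3% and 49.6% of those of the controls. Genes of organizer, mesoderm and endoderm (*gsc*, *not*, *t*, *eomes*, *mix1* and *sox17*) were read in all 4 libraries, as the labelled stage has them. Cardiac myosin *myh6*, a gene of later differentiation, had at most 1 read. Of the ectoderm markers, the epidermal keratin *krt12.S* had 0 and 6 reads in Gcn5-AS embryos, against 71 and 31 in controls, while *krt12.L*, *foxi1.L* and *foxi1.S* had at most 9 in any library. The targeted gene did not separate the groups: *kat2a.L* had 52.9 and 62.6 normalized reads in Gcn5-AS embryos, against 50.4 and 103.5 in controls (log2 fold change -0.26, limma adjusted p = 0.742). Its homeolog *kat2a.S* had 13.7 and 35.5 in Gcn5-AS embryos, against 27.9 and 45.7 in controls (-0.67, limma adjusted p = 0.445). The *kat2a* level therefore does not check the group labels.

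Most replication genes had values below 0 in Gcn5-AS embryos, and few of them passed the test. Of the 39 measured models, 29 had a log2 fold change below 0 and 10 above 0, and their median was -0.40, beside 0.02 over all 11272 models tested. These signs are those of the fit. The group means of *orc6.L* and *pola2.L* were higher in Gcn5-AS embryos, and those of *mcm5.S* and *rpa1.L* lower, against their fitted signs. Limma called 3 models lower and 0 higher at an adjusted p under 0.1, which is 7.69% lower, beside 4.17% called lower and 4.46% called higher over all models. The models called were *rfc3.L*, a subunit of the clamp loader, *pold2.L*, the second subunit of polymerase delta, and *pole2.L*, the second subunit of polymerase epsilon. At an unadjusted p under 0.05 limma had 8 of the 39 members, all of them lower, beside 2481 of all 11272 models in either direction. The share of members at this limit was thus not above that of all models. Both Gcn5-AS libraries lay below both controls for 19 members (48.7%), beside 25.0% of all models, and above both controls for 5 members (12.8%), beside 26.3% of all models. Among the members, *rfc3.L* and *rfc5.S* reached the minimum mean only through the controls, so that their means were lower in Gcn5-AS embryos by construction. Both are among the 29 models below 0. *rfc3.L* is also among the 3 called lower and the 19 below both controls.

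**Figure D1:**
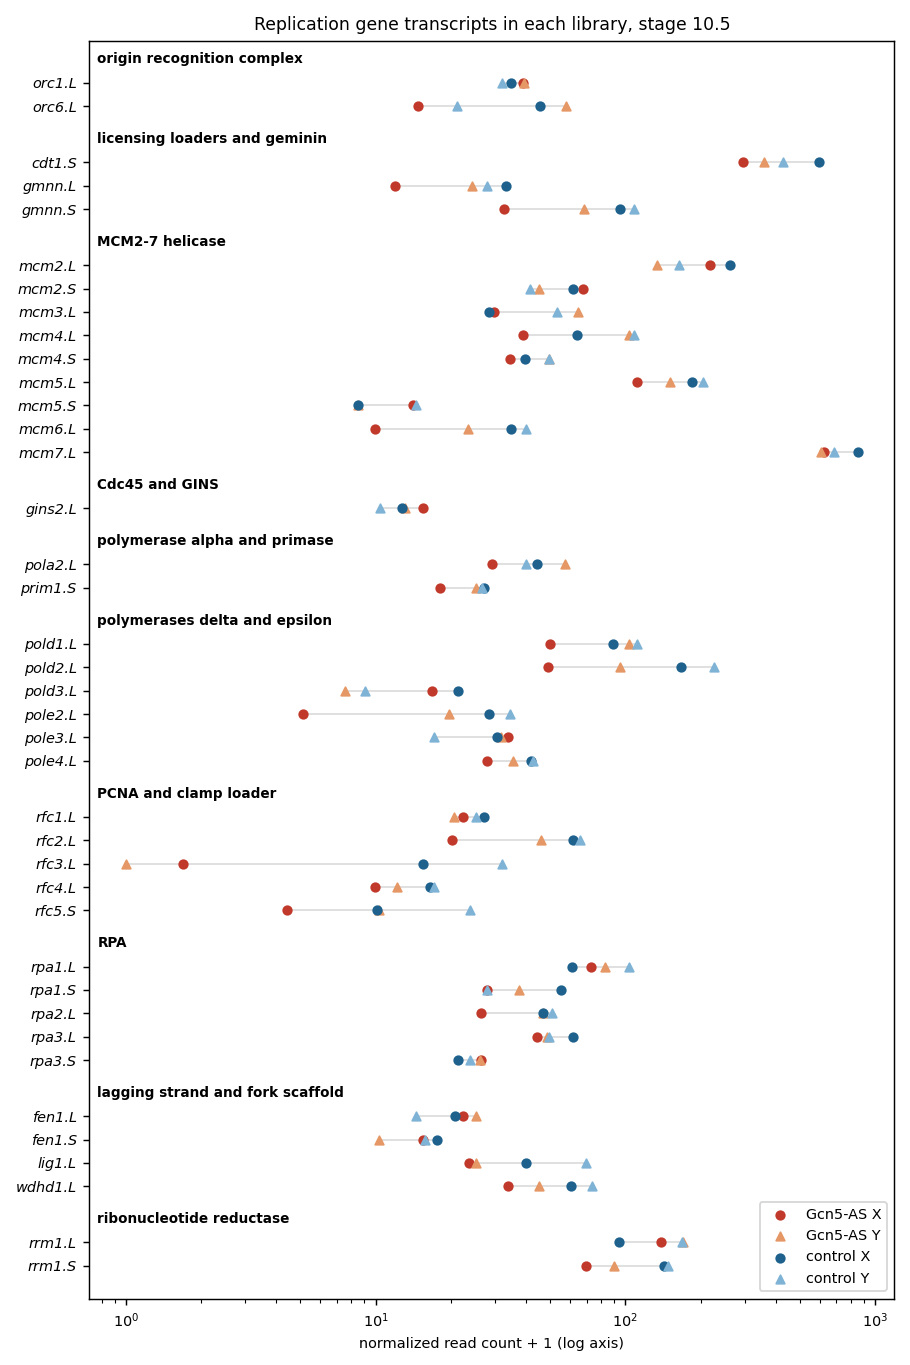
Normalized read count plus 1 (log axis) of each of the 39 measured models in Gcn5-AS libraries X and Y and control libraries X and Y, grouped by role, with a grey line over the range of each model. Both Gcn5-AS points lie left of both control points for 19 models, with the widest gap at *rfc3.L*.

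The values were lowest in library Gcn5-AS X. The summed normalized reads of the 39 models came to 2306 (X) and 2784 (Y) for Gcn5-AS, against 3518 (X) and 3363 (Y) for control. On the log2 scale, the members' median deviation from their own mean over the 4 libraries was -0.46 for Gcn5-AS X and 0.01 for Gcn5-AS Y, against 0.22 for control X and 0.28 for control Y, while over all models it lay between 0.00 and 0.04 in every library. Gcn5-AS X was the lowest library for 23 of the 39 members, beside 30.2% of all models. The median was -0.25 without Gcn5-AS X and -0.61 without Gcn5-AS Y, beside 0.03 and 0.04 over all models. Without control X and without control Y it was -0.39 and -0.43, beside -0.01 and 0.02 over all models. The calls of members with all 4 libraries did not hold in each of these fits, and calls over all models changed as well. The authors' size factors behind these values were 1.46 and 1.07 for Gcn5-AS, against 1.87 and 0.744 for control. With total reads in their place the median was -0.55 for the members and -0.15 for all models, so that both moved down, and 32 of the 39 members lay below 0.

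**Figure D2:**
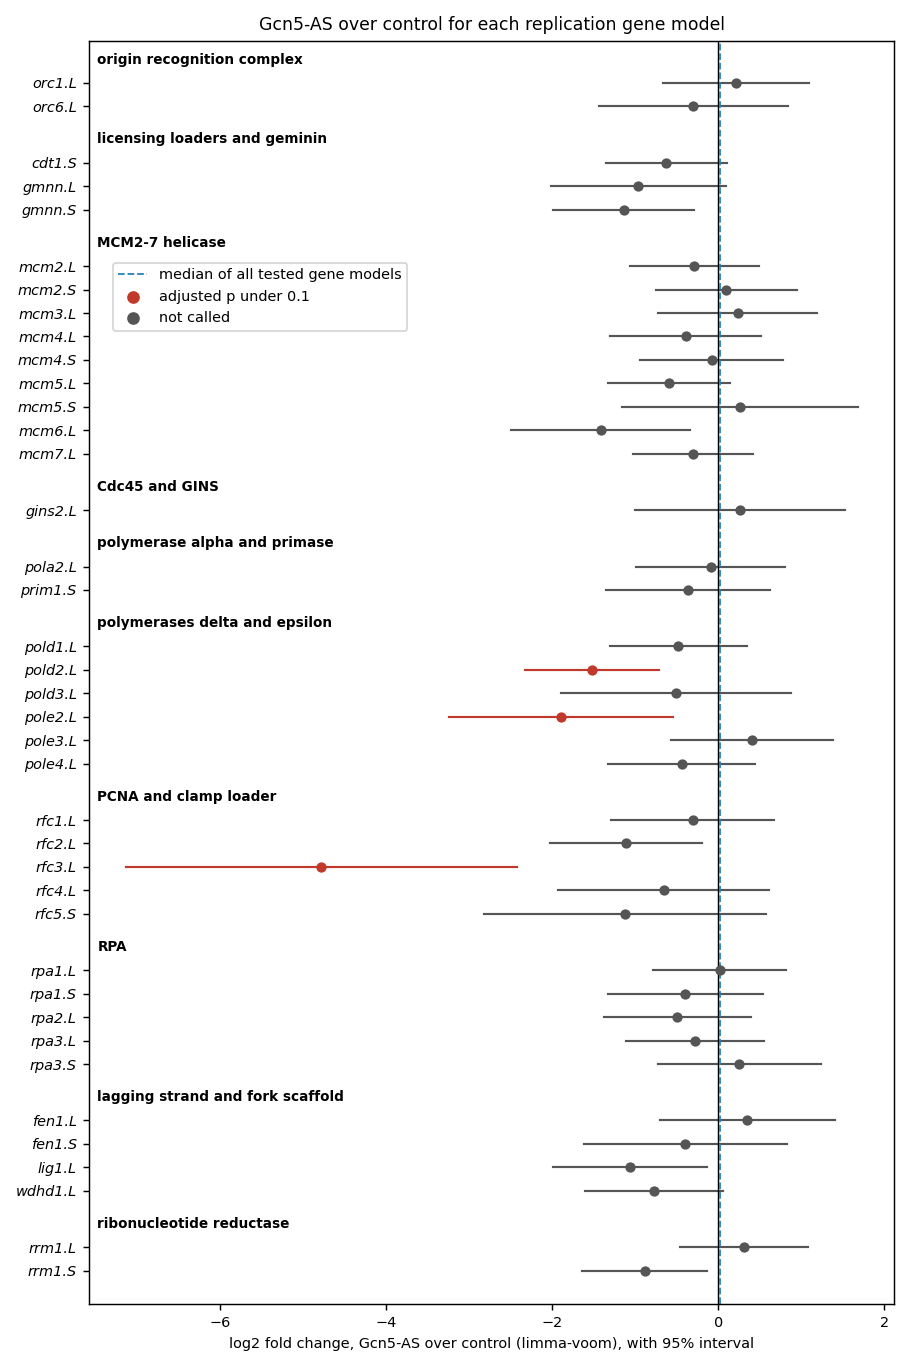
Log2 fold change of Gcn5-AS over control for each measured model by limma-voom, with its 95% interval, grouped by role, where red marks the 3 models called lower and the dashed line the median of all models. Of the 39 points, 29 lie left of 0.

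The origin recognition complex was read thinly, and none of its models was called. *orc1.L*, the largest subunit and an ATPase, had 37.8 and 38.3 normalized reads in Gcn5-AS embryos, against 33.8 and 30.9 in controls (log2 fold change 0.22). *orc6.L*, the smallest subunit, had 13.7 and 57.0 in Gcn5-AS embryos, against 44.5 and 20.2 in controls, so that the groups overlapped and the libraries of each group differed more than the groups did. *orc2.S*, *orc3.S*, *orc4.L* and *orc5.L* had means under 10. Of these *orc3.S* had the most reads, 8 and 4 in Gcn5-AS embryos, against 22 and 9 in controls.

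The models *cdt1.S*, for the loader Cdt1, and *gmnn.S* and *gmnn.L*, for its inhibitor geminin, had values below the controls in both Gcn5-AS libraries, and none passed the test. The Cdt1 model *cdt1.1*, outside the rule by its name, did not share this (0.07, with overlapping groups). *cdt1.S* had 295 and 359 normalized reads in Gcn5-AS embryos, against 596 and 425 in controls (-0.63, SE 0.35, limma adjusted p = 0.300). *gmnn.S* had 31.6 and 67.3 in Gcn5-AS embryos, against 93.8 and 108 in controls (-1.14, SE 0.41, limma adjusted p = 0.109). *gmnn.L* had 11.0 and 23.4 in Gcn5-AS embryos, against 32.2 and 26.9 in controls (-0.97, SE 0.51, limma adjusted p = 0.272). The groups did not overlap for any of these 3 models, beside 25.0% of all models with both Gcn5-AS libraries below both controls. Gcn5-AS X was the lowest library for each of the 3. Without Gcn5-AS X the value of *gmnn.S* was -0.56 and the median of the 3 models -0.48, beside -0.97 with all libraries. *cdc6*, the other loader, had no row under its symbol.

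The helicase subunits did not move as 1 block. Of 9 models for Mcm2 to Mcm7, 6 lay below 0 and 3 above, the median was -0.29 and none was called. The summed normalized reads of the 9 models were 1137 and 1178 in Gcn5-AS embryos, against 1528 and 1352 in controls. *mcm6.L*, which RefSeq lists as the maternal form, had the lowest value of the group, with 8.93 and 22.4 in Gcn5-AS embryos, against 33.8 and 39.0 in controls (-1.42, SE 0.52, limma adjusted p = 0.118). The groups did not overlap for *mcm6.L*, and its value without Gcn5-AS X was -0.66. *mcm5.L* had 109.9 and 149 in Gcn5-AS embryos, against 183 and 204 in controls (-0.60, limma adjusted p = 0.337). *mcm7.L* had 620.4 and 607 in Gcn5-AS embryos, against 851 and 683 in controls (-0.31, limma adjusted p = 0.636). These 3 were the models of the helicase whose groups did not overlap. They are 33.3% of the helicase models, beside 25.0% of all models with both Gcn5-AS libraries below both controls. For *mcm4.L*, with 37.8 and 103 in Gcn5-AS embryos against 63.3 and 108 in controls (-0.39), the groups overlapped and Gcn5-AS Y stood among the controls. Its homeolog *mcm4.S* had 33.7 and 48.6 in Gcn5-AS embryos, against 38.6 and 48.4 in controls (-0.08). *mcm5.S* had 13.1 and 7.47 in Gcn5-AS embryos, against 7.51 and 13.4 in controls (0.26), which crosses over within each group. *mcm2.L* (-0.29), *mcm2.S* (0.10) and *mcm3.L* (0.23) made up the rest, all with overlapping groups. With scaling by total reads *mcm2.S* (-0.044) and *mcm5.S* (-0.12) lay below 0 as well. Of the MCM proteins outside the ring, *mcm8.L*, a helicase subunit of homologous recombination, had 1 read in each Gcn5-AS library, against 18 and 2 in the controls. *mcm10.L*, an initiation factor that helps start the helicase, had 10 and 13 reads in Gcn5-AS embryos, against 17 and 7 in controls, and both *mcm8.L* and *mcm10.L* were under the limit for a test.

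The partners that turn the MCM ring into a working helicase were near the limit of measurement. *gins2.L*, a GINS subunit, had 14.4 and 12.1 normalized reads in Gcn5-AS embryos, against 11.8 and 9.41 in controls (0.26, limma adjusted p = 0.837). *gins1.S* had 2 and 21 reads in Gcn5-AS embryos, against 12 and 6 in controls, and *gins4.L* had 8 and 10 in Gcn5-AS embryos, against 16 and 6 in controls. *gins2.L* was not called, and the other GINS models were under the limit for a test.

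Primer synthesis was represented by the models *pola2.L*, *prim1.S* and *prim2.S*. *prim1.S*, the catalytic primase subunit, had 17.2 and 24.3 in Gcn5-AS embryos, against 26.3 and 25.6 in controls (-0.37, limma adjusted p = 0.686). *pola2.L*, the regulatory subunit of polymerase alpha, had 28.2 and 56.0 in Gcn5-AS embryos, against 43.4 and 39.0 in controls (-0.09, limma adjusted p = 0.924). *prim2.S*, the large primase subunit, had a mean of 5.18. Neither measured model was called.

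Among the replicative polymerases delta and epsilon, the second subunit of each fell in Gcn5-AS embryos, though neither was called with scaling by total reads (limma adjusted p = 0.130 for *pold2.L* and 0.237 for *pole2.L*). *pold2.L*, which joins the catalytic subunit of polymerase delta to the accessory ones, had 48.1 and 94.3 normalized reads in Gcn5-AS embryos, against 166 and 225 in controls. Both Gcn5-AS libraries were below both controls, and the log2 fold change was -1.53 (95% interval -2.33 to -0.72, limma adjusted p = 0.029). *pole2.L*, which has the like place in polymerase epsilon, had 4.12 and 18.7 in Gcn5-AS embryos, against 27.3 and 33.6 in controls. The groups did not overlap and the log2 fold change was -1.89 (95% interval -3.24 to -0.55, limma adjusted p = 0.095), with 6 and 20 reads in Gcn5-AS embryos behind it, against 51 and 25 in controls. Without Gcn5-AS X the values were -1.02 for *pold2.L* (limma adjusted p = 0.241) and -0.64 for *pole2.L* (limma adjusted p = 0.725), so that the value of *pole2.L* rested on that library. *pold2.L* was also not called without control X (limma adjusted p = 0.200) or without control Y (limma adjusted p = 0.245). For *pole2.L* these were 0.396 and 0.301 (limma adjusted p), and it was not called by limma-trend (0.130) or with homeologs summed (0.126).

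The other subunits of these polymerases gave smaller values and none was called. *pold1.L*, the catalytic subunit of polymerase delta, had 48.8 and 103 in Gcn5-AS embryos, against 87.9 and 110.3 in controls (-0.48, limma adjusted p = 0.504), and its groups overlapped. *pole4.L*, a histone-fold subunit of polymerase epsilon, had 26.8 and 34.6 in Gcn5-AS embryos, against 40.7 and 41.7 in controls (-0.44, limma adjusted p = 0.570). Its histone-fold partner *pole3.L* went the other way, with 33.0 and 30.8 in Gcn5-AS embryos, against 29.5 and 16.1 in controls, and its log2 fold change of 0.40 (limma adjusted p = 0.647) was the highest of the 39 models. *pold3.L* had a value of -0.51 on 7 to 23 reads in Gcn5-AS embryos and 6 to 38 in controls. *pole3.S* had no read in any library.

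All 5 measured models of the clamp loader RFC lay below 0, with a median of -1.12, and 1 was called lower (20%), beside 4.17% of all models. Of the RFC models, *rfc3.L* and *rfc5.S* reached the minimum mean of 10 only through the controls. Their group means were 0.344 and 6.39 in Gcn5-AS embryos, against 22.7 and 16.0 in controls. A model that passes in this way has the lower mean in Gcn5-AS embryos by construction. The median of -1.12 counts both of these models, and the model called was *rfc3.L*. *rfc3.L* fell in Gcn5-AS embryos, where it had 1 and 0 reads, against 27 and 23 reads in controls. In normalized reads this was 0.687 and 0 in Gcn5-AS embryos, against 14.5 and 30.9 in controls. The fitted log2 fold change of -4.78 (limma adjusted p = 0.022) depends on the prior count, and the ratio of the reads, scaled by the size factors, was 0.0207, with an exact 95% counting interval of 0.000513 to 0.120, which is 48.4-fold lower with limits of 8.30 and 1950-fold. This interval covers counting error only. With a minimum mean of 5 in place of 10, *rfc3.L* was not called. The call of *rfc3.L* was kept without Gcn5-AS Y (limma adjusted p = 0.083) and lost without Gcn5-AS X (0.130), control X (0.345) or control Y (0.295), where its fitted value lay between -5.51 and -4.41. No *rfc3.S* model was found by the rule.

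*rfc2.L*, a small ATPase subunit, had 19.2 and 44.8 normalized reads in Gcn5-AS embryos, against 60.6 and 64.6 in controls (-1.12, SE 0.44, limma adjusted p = 0.143). Its groups did not overlap, and its value without Gcn5-AS X was -0.47. *rfc4.L* had 8.93 and 11.2 in Gcn5-AS embryos, against 15.5 and 16.1 in controls (-0.66, limma adjusted p = 0.557). *rfc5.S* had 3.44 and 9.34 in Gcn5-AS embryos, against 9.11 and 22.9 in controls (-1.13, limma adjusted p = 0.439). *rfc1.L*, the large subunit, had 21.3 and 19.6 in Gcn5-AS embryos, against 26.3 and 24.2 in controls (-0.31, limma adjusted p = 0.740). Only *rfc5.S* of these had overlapping groups. With *rfc3.L* counted, 80% of the measured RFC models had both Gcn5-AS libraries below both controls, beside 25.0% of all models. The lower mean of *rfc3.L* followed by construction. *rfc1.L*, *rfc2.L* and *rfc4.L* had means of at least 10 in both groups, and none of them was called. The summed normalized reads of the 5 models were 53.6 and 85.0 in Gcn5-AS embryos, against 126 and 159 in controls, and without Gcn5-AS X their median was -0.46. *rfc5.L* had 1 and 6 reads in Gcn5-AS embryos, against 3 and 5 in controls, and *pcna*, the clamp itself, had no row under its symbol.

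**Figure D3:**
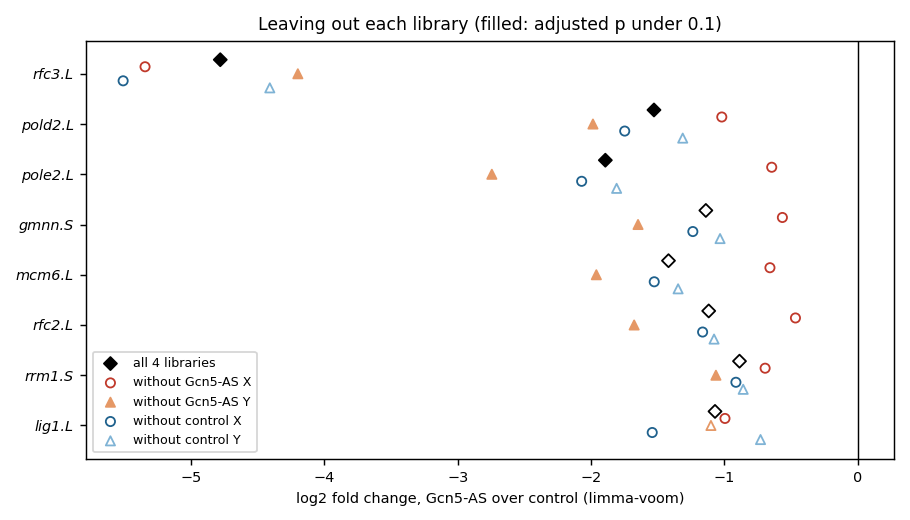
Log2 fold change of Gcn5-AS over control by limma-voom for the 8 models with an unadjusted p under 0.05, with all 4 libraries (diamonds) and with each library left out, where filled symbols have an adjusted p under 0.1. All points lie left of 0, and the points without Gcn5-AS X lie nearest to 0 for *pold2.L*, *pole2.L*, *gmnn.S*, *mcm6.L*, *rfc2.L* and *rrm1.S*. No point without Gcn5-AS X, control X or control Y is filled, and calls over all models fell in those fits as well.

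RPA, the trimer that coats single-stranded DNA, had a median of -0.28 over 5 measured models, none of them called. *rpa2.L*, the middle subunit and a target of the checkpoint kinases, had 25.4 and 45.8 in Gcn5-AS embryos, against 45.6 and 49.8 in controls (-0.49, limma adjusted p = 0.524), and its homeolog *rpa2.S*, under the limit, had 6.87 and 15.9 in Gcn5-AS embryos, against 5.90 and 6.72 in controls. *rpa1.S*, for the large subunit, had 26.8 and 36.4 in Gcn5-AS embryos, against 54.1 and 26.9 in controls (-0.40, limma adjusted p = 0.632), and *rpa1.L* had 72.1 and 82.2 in Gcn5-AS embryos, against 60.0 and 102 in controls (0.02, or -0.17 with scaling by total reads). *rpa3.L*, for the small subunit, had 43.3 and 47.6 in Gcn5-AS embryos, against 60.6 and 48.4 in controls (-0.28). Its homeolog *rpa3.S* had 25.4 and 25.2 in Gcn5-AS embryos, against 20.4 and 22.9 in controls (0.25). The homeologs of *rpa3* thus each had groups that did not overlap, on opposite sides. Over all models 25.0% had both Gcn5-AS libraries below both controls and 26.3% above. With scaling by total reads *rpa3.S* was at 0.057, and the difference between the copies was not tested.

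For the proteins that finish the lagging strand and tie the polymerases to the helicase, the values were below the controls for *lig1.L*, *wdhd1.L* and *fen1.S*, and none was called. *lig1.L*, the ligase that seals Okazaki fragments, had 22.7 and 24.3 in Gcn5-AS embryos, against 39.1 and 68.6 in controls (-1.07, SE 0.45, limma adjusted p = 0.163). *wdhd1.L*, which encodes And-1 (Ctf4), the scaffold between helicase and polymerase alpha, had 33.0 and 43.9 in Gcn5-AS embryos, against 59.5 and 72.6 in controls (-0.78, SE 0.41, limma adjusted p = 0.265). For both genes the Gcn5-AS libraries lay below both controls, and without Gcn5-AS X the values were -0.995 for *lig1.L* and -0.55 for *wdhd1.L*. *fen1*, the flap endonuclease, split between its copies: *fen1.S* had 14.4 and 9.34 in Gcn5-AS embryos, against 16.6 and 14.8 in controls (-0.40), and *fen1.L* had 21.3 and 24.3 in Gcn5-AS embryos, against 19.8 and 13.4 in controls (0.35).

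The large subunit of ribonucleotide reductase, the enzyme that makes deoxynucleotides, also split between its copies. *rrm1.S* had 68.7 and 88.7 in Gcn5-AS embryos, against 142 and 147 in controls (-0.89, SE 0.37, limma adjusted p = 0.157), with no overlap. *rrm1.L* had 137 and 169 in Gcn5-AS embryos, against 93.3 and 168 in controls (0.31, SE 0.38, limma adjusted p = 0.662), with overlap. The difference between the copies was not tested.

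Across the 8 symbols whose L and S copies were both measured, the fold changes had the same sign for 2, *gmnn* and *mcm4*, and for both of these the copies lay below 0. Of these pairs *gmnn* is the one whose copies both had groups that did not overlap with the Gcn5-AS side lower. The count of 2 rests on values close to 0: it was 5 with scaling by total reads and 4 without Gcn5-AS X. Reads of near-identical copies may have been divided unevenly, as the counting rule for such reads is not given in the sources used here. With the reads of both copies added before the fit, 31 symbols of the rule were tested, and *pold2* and *rfc3* were called lower and none higher. Of all 9232 symbols in that fit 339 (3.67%) were called lower and 324 higher. *rfc3*, with the L model alone, reached the minimum mean only through the controls. In the same fit *gmnn* had a log2 fold change of -1.09 (limma adjusted p = 0.138).

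**Figure D4:**
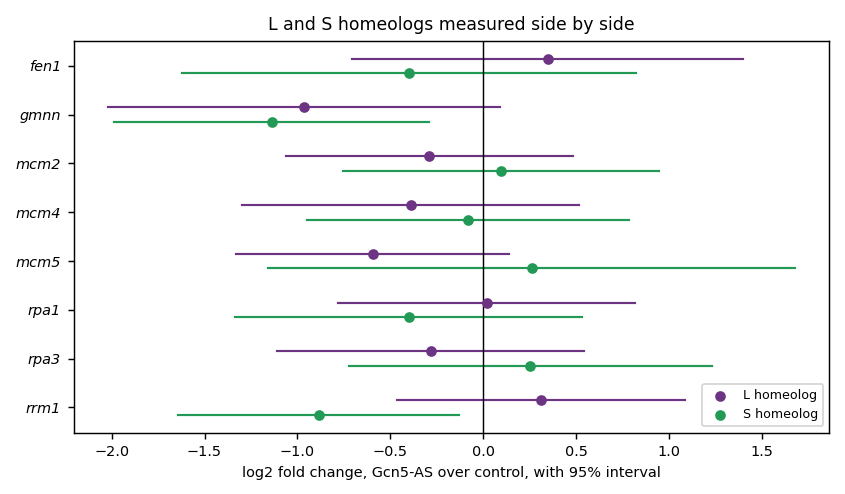
Log2 fold change of Gcn5-AS over control by limma-voom, with 95% intervals, for the L and S copies of the 8 symbols with both copies measured. Both points lie left of 0 for *gmnn* and *mcm4* alone, and the intervals of the copies overlap in every pair.

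The libraries of the Gcn5-AS group differed from each other in these genes. Gcn5-AS X lay below Gcn5-AS Y for 28 of the 39 members, beside 47.0% of all models, and the median log2 ratio of X over Y was -0.36 for members and 0.05 for all models. In the controls 22 members were lower in X than in Y, beside 50.8% of all models, with medians of -0.05 for members and 0.00 for all models. Most markers of organizer, mesoderm and endoderm moved with the groups: 9 of 14 measured models were called higher and none lower. The summed normalized reads of the 14 models were 10423 and 8152 in Gcn5-AS embryos, against 4533 and 4524 in controls. The mesoderm gene *t* did not share this. *t.L* was at -0.35 with both Gcn5-AS libraries below both controls, and *t.S* was at 0.07 with overlapping groups. Of the 4 ectoderm models only *krt12.S* was tested. It was called lower, with 0 and 5.60 normalized reads in Gcn5-AS embryos, against 38.1 and 41.7 in controls. *krt12.S* reached the minimum mean only through the controls (group means 2.80 against 39.9), so that its lower mean followed by construction. The part of these differences in the values of the replication genes was not tested.

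The 9 symbols of the rule *cdc45*, *cdc6*, *gins3*, *mcm9*, *pcna*, *pola1*, *pold4*, *pole* and *rrm2* had no row under their own names. The table holds 13 models whose names carry a suffix, a prefix or -like on the stem of a rule symbol, which were picked after their values were seen and are given as a description of the same machinery. Of the 11 measured, limma called 2 lower and 0 higher, which is 18.2% lower in a group picked on its values, beside 4.17% called lower and 4.46% called higher over all models. *pole-like.L*, named for the catalytic subunit of polymerase epsilon, had 22.7 and 22.4 normalized reads in Gcn5-AS embryos, against 81.5 and 78.0 in controls (-1.81, 95% interval -2.68 to -0.93, limma adjusted p = 0.020). Its libraries were close within each group, and it kept its call without Gcn5-AS X (limma adjusted p = 0.072), Gcn5-AS Y (0.010) and control Y (0.099) but not without control X (0.291). *rrm2.1.L*, for the small subunit of ribonucleotide reductase, had 100.3 and 201 in Gcn5-AS embryos, against 310.4 and 288 in controls (-1.08, 95% interval -1.85 to -0.31, limma adjusted p = 0.098), and without Gcn5-AS X its value was -0.57 (limma adjusted p = 0.586). *rrm2.1.L* was also not called with scaling by total reads (limma adjusted p = 0.352) or by limma-trend (0.125). The related *rrm2.2.L* and *rrm2.2.S* had values of 0.29 and 0.40, with both Gcn5-AS libraries above both controls for each and neither called. Their means over all libraries were 374 and 289 normalized reads, beside 225 for *rrm2.1.L*.

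Of the remaining models with such names, *pola1-like.S*, for the catalytic subunit of polymerase alpha, had 8.24 and 10.3 in Gcn5-AS embryos, against 24.1 and 28.2 in controls (-1.47, limma adjusted p = 0.156). *pola1-like.S* reached the minimum mean of 10 only through the controls (group means 9.26 against 26.2), so that its lower mean followed by construction. The zygotic form of Mcm6 by its RefSeq synonym, *mcm6.2*, had 16.5 and 14.9 in Gcn5-AS embryos, against 45.6 and 18.8 in controls, for the L copy (-1.03, limma adjusted p = 0.257). The S copy had 16.5 and 32.7 in Gcn5-AS embryos, against 52.5 and 28.2 in controls (-0.85, limma adjusted p = 0.302). The zygotic form of Mcm3, *zmcm3.L*, had 0.19. Maternal and zygotic forms of Mcm6 therefore both lay below 0 and both forms of Mcm3 above 0, none of them called. *cdt1.1* had 1017 and 772 in Gcn5-AS embryos, against 1010 and 711 in controls (0.07), beside -0.63 for *cdt1.S*, and the difference was not tested. *mcm7.1* had -0.27 and *cdc45-like.L* had 0.39.

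A further 8 lists of genes that control or accompany replication held 55 measured models, 4 of them in a list of MCM forms and an MCM-binding protein that overlaps the models just described. Of the 55 limma called 1 higher (1.82%) and 4 lower (7.27%), beside 4.46% higher and 4.17% lower over all models, and their median was 0.16. Without the MCM list the 51 models had the same calls and a median of 0.16, beside -0.40 for the licensing and fork genes. *timeless.S*, of the fork protection complex, had 9.62 and 10.3 in Gcn5-AS embryos, against 43.4 and 43.0 in controls (-2.09, limma adjusted p = 0.036). This model, 1 of the 4 called lower, reached the minimum mean of 10 only through the controls (group means 9.95 against 43.2). Its mean was therefore lower in Gcn5-AS embryos by construction. *atad5.L*, which unloads PCNA, had 20.6 and 27.1 in Gcn5-AS embryos, against 72.9 and 72.6 in controls (-1.62, limma adjusted p = 0.031). *top3a.L*, a topoisomerase that resolves joined DNA strands, had 19.2 and 21.5 in Gcn5-AS embryos, against 69.7 and 98.2 in controls (-1.98, limma adjusted p = 0.014). For each of these 3 genes the Gcn5-AS libraries were close to each other and below both controls.

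*rb1.S*, the retinoblastoma protein that restrains E2F, had 21.3 and 44.8 in Gcn5-AS embryos, against 74.5 and 83.4 in controls (-1.37, limma adjusted p = 0.070). *esco2.S*, the acetyltransferase that fixes cohesin on replicated DNA, was the gene called higher, with 170.4 and 119 in Gcn5-AS embryos, against 61.6 and 72.6 in controls (a 2.15-fold higher mean, with a 95% interval of the log2 fold change of 0.33 to 1.88, limma adjusted p = 0.093). Without Gcn5-AS X only *top3a.L* of these 5 kept its call (-1.89, limma adjusted p = 0.062), without control X it was also the only one, and without control Y none did. *esco2.S* was also not called with scaling by total reads (limma adjusted p = 0.518), with scaling by reads outside the 10 most abundant models (0.208) or by limma-trend (0.112). With total reads *atad5.L* (limma adjusted p = 0.122) and *rb1.S* (0.233) were not called either.

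The E2F and Rb list holds activating and repressive E2F factors, which act on replication genes in S phase, a dimer partner and the retinoblastoma protein, and most of its values were above 0. Of its 11 measured models 9 were above 0, with a median of 0.32, and both Gcn5-AS libraries lay above both controls for 6 (54.5%), beside 26.3% of all models, though none was called higher. Of the 9 values above 0, 5 belong to *e2f4.S*, *e2f5.L*, *e2f5.S*, *e2f6.S* and *e2f8.L*, which are counted among the repressive E2Fs. *e2f1.S*, an activating E2F, had 33.7 and 21.5 in Gcn5-AS embryos, against 9.65 and 17.5 in controls (1.25, limma adjusted p = 0.179). *e2f3.S*, another activating E2F, had 831 and 707 in Gcn5-AS embryos, against 422 and 520.4 in controls (0.71, limma adjusted p = 0.237).

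The origin firing factors had a median of 0.01 over 10 measured models and none called. *ticrr.S*, for treslin, which brings Cdc45 to origins, had 155 and 57.0 in Gcn5-AS embryos, against 44.5 and 55.1 in controls (0.97, limma adjusted p = 0.199), and *ticrr.L* had 199.9 and 155 in Gcn5-AS embryos, against 93.8 and 119.7 in controls (0.75, limma adjusted p = 0.228). The checkpoint and fork protection list had a median of 0.14 over 11 models, of which *timeless.S* was called. *atr.L*, the kinase that senses stalled forks, had 9.62 and 8.41 in Gcn5-AS embryos, against 34.8 and 18.8 in controls (-1.57, limma adjusted p = 0.143). Like *timeless.S*, *atr.L* reached the minimum mean of 10 only through the controls (group means 9.01 against 26.8). *tipin.L*, the partner of Timeless, had 23.4 and 18.7 in Gcn5-AS embryos, against 40.2 and 53.8 in controls (-1.09, limma adjusted p = 0.157). Its homeolog *tipin.S* had 65.3 and 55.1 in Gcn5-AS embryos, against 56.8 and 39.0 in controls (0.30, with overlapping groups). *timeless.L*, the homeolog of *timeless.S*, was at -0.38 (limma adjusted p = 0.716). In the list of Cdt1 degradation *cul4b.S*, a ubiquitin ligase scaffold, had the lowest value with 40.5 and 64.4 in Gcn5-AS embryos, against 92.7 and 95.5 in controls (-0.89, limma adjusted p = 0.183). *skp2.L*, the substrate receptor of another ligase, had 255 and 217 in Gcn5-AS embryos, against 371 and 249 in controls (-0.38, limma adjusted p = 0.561). *dtl.L* (0.33) and *dtl.S* (0.38) of the same list went the other way, with both Gcn5-AS libraries above both controls. The median of this list was -0.22 over 5 measured models. In the list of nucleotide supply *shmt1.L*, an enzyme of one-carbon metabolism, had 29.5 and 29.0 in Gcn5-AS embryos, against 60.0 and 43.0 in controls (-0.83, limma adjusted p = 0.255), and thymidine kinase *tk1.L* had 30.2 and 50.4 in Gcn5-AS embryos, against 28.4 and 33.6 in controls (0.34, limma adjusted p = 0.689). None of the models in either list was called. *polq.L*, the polymerase of theta-mediated end joining, had 238 and 213 in Gcn5-AS embryos, against 144 and 112 in controls (0.81, limma adjusted p = 0.183).

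**Figure D5:**
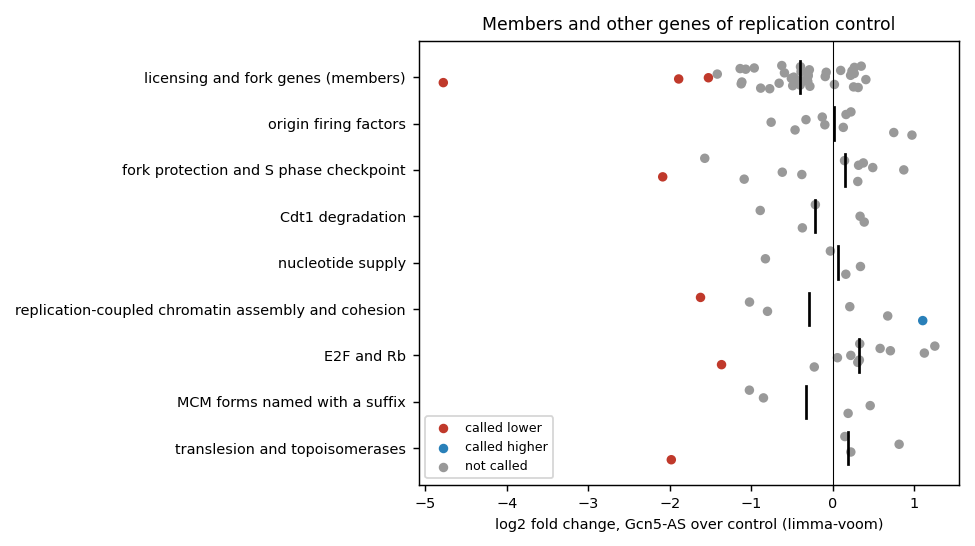
Log2 fold change of Gcn5-AS over control by limma-voom for the 39 licensing and fork models and for the 55 measured models of 8 further lists, with the median of each list as a black bar. The licensing and fork genes have a median of -0.40 with 3 called lower (red), and the E2F and Rb list has a median of 0.32 with *rb1.S* called lower.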

How the data were processed

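Total RNA of whole embryos was depleted of ribosomal RNA, and libraries were made with random hexamer primers. Per the labels, the authors mapped single-end reads with STAR to a JGI *X. laevis* genome and compared groups with DESeq. The read counter, annotation, strand setting and treatment of reads shared by homeologs were not given in the sources used here, so reads of overlapping or antisense genes could not be separated.

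The deposited table holds a signal for each gene model, the mean normalized read count of each group as the authors computed it with their size factors. Its columns of fold changes and p-values are the authors' own comparison and were not used. Each group mean is the average of 2 whole numbers divided by 2 size factors. Every mean above 0 (21410 for Gcn5-AS and 21721 for control) had a single solution within a relative tolerance of 3e-14, which gave the reads of each library. The recovery and the fit were checked on simulated data.

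Reads were fitted by voom, lmFit and eBayes of limma 3.58.1 (R 4.3.3, two-sided) with the authors' size factors, over 11272 models with a mean of at least 10 normalized reads. P-values were adjusted by Benjamini and Hochberg over these models, and an adjusted p under 0.1 was called, the false discovery rate the study used. No count model was run on the recovered reads. All members could be named. Values in every library are given for members called, for up to 3 of each role with the smallest unadjusted p and for their homeologs, and for genes of the other lists that were called or had the smallest 2 unadjusted p-values of their list. *mcm7.L*, *pole3.L*, *pole4.L*, *rfc1.L*, *rfc4.L*, the low-count members, *tipin.L*, *e2f3.S* and the models outside the rule were added after their values were seen. The same holds for *tipin.S*, *timeless.L*, *dtl.L* and *dtl.S*. The members and lists were chosen with earlier results of these data known. Alternatives were other scalings, other minimum counts, an adjusted p under 0.05, limma-trend, summed homeologs and each library left out. Gene synonyms came from RefSeq, whose assembly differs from that of the table, so that no coordinates are given. Depth limits precision most for the 11 members with a mean of 0.838 to 9.38, which were not tested.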

Additional observations from a re-analysis of the deposited data

How the results depend on the processing

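The median log2 fold change of the members was negative under every alternative. It ran from -0.61 to -0.25 with a library left out and from -0.60 to -0.33 otherwise. No alternative called a member higher. In place of 39 members, 45 were tested at a minimum mean of 5 and 13 at a minimum of 50. Without a minimum 50 were tested, and with homeologs summed 31, so that counts of calls rest on different totals. Of all models 4.17% were called lower in the main fit. This share was 3.26% at a minimum of 5, 4.35% at 50 and 1.74% without a minimum. It was 3.68% by limma-trend and 3.67% with homeologs summed. Members called lower (3) numbered 1 with scaling by total reads, 5 with scaling by reads outside the 10 most abundant models, 2 at a minimum mean of 5, 1 at a minimum of 50, 2 without a minimum, 2 by limma-trend, 2 with homeologs summed, 2 at an adjusted p under 0.05, and 0 to 7 with a library left out. Over all models 503 were called higher and 470 lower, against 19 and 171 with total reads, 195 and 595 with the other scaling (median of all models -0.19), 320 and 197 at a minimum of 50, and 6 and 76 without control X, the lowest of the left-out fits, and 1421 and 836 without Gcn5-AS Y, the highest. Of the other genes of replication control, 1 was called higher, against 0 with total reads, with the other scaling and by limma-trend, and 0 to 4 with a library left out. Of these genes 4 were called lower, against 2 with total reads and 0 to 6 with a library left out. Signs turned for genes near 0 that were not called: *mcm2.S* was -0.044 and -0.10, *mcm5.S* -0.12 and -0.033 and *rpa1.L* -0.17 and -0.19 with total reads and the other scaling, and by limma-trend *mcm5.S* was -0.023 and *rpa1.L* -0.025. The cause was not tested.

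No paired analysis was possible because the deposited means carry no replicate numbers. With 2 libraries a group, a fit without one assumes that the lone library varies like the other group.

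With a library left out, the values of the genes that turned sign ranged from -1.26 to 0.77 for *orc6.L*, -0.65 to 0.060 for *mcm2.L*, -0.23 to 0.42 for *mcm2.S*, -0.32 to 0.85 for *mcm3.L*, -1.06 to 0.37 for *mcm4.L*, -0.32 to 0.20 for *mcm4.S*, -0.39 to 0.56 for *mcm5.S*, -0.56 to 0.43 for *pola2.L*, -0.99 to 0.080 for *pold1.L*, -1.22 to 0.38 for *pold3.L*, -0.41 to 0.36 for *rpa1.L*, -0.80 to 0.19 for *rpa1.S*, -0.14 to 0.71 for *rrm1.L*, -0.85 to 0.19 for *kat2a.L* and -1.27 to 0.076 for *kat2a.S*.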
